A study of Danio rerio with 6 samples.

Results

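The miR-22 family of the zebrafish ovarian follicle was described from small RNA sequencing of follicular cells. The family was taken by name as every listed miRNA with the zebrafish prefix dre- and the number 22, and it was chosen by the level of dre-miR-22a-3p and its difference between the stages in these libraries. This gave 3 of the 289 listed miRNAs, namely dre-miR-22a-3p, dre-miR-22a-5p and dre-miR-22b-3p, and 214 of the 289 carried the prefix. The fish were bought from a local supplier, and neither a strain nor an allele or drug is named for any group. The follicles, all of which were taking up yolk, were sorted by size. The smaller group, stage IIIa, precedes maturational competence, that is, the ability of the oocyte to resume meiosis in response to hormones. The larger group, stage IIIb, has gained it. Each stage had 3 libraries, each from the peeled cell layers of many follicles pooled from several fish. A sample is thus a mix of females, and the peeled layer can hold every cell type that surrounds the oocyte. Nothing in the labels ties the pools of one stage to those of the other, and the labels do not say that the 3 pools of a stage came from separate fish.

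A miRNA gene is transcribed into a hairpin, and the enzyme Dicer cuts the stem of the hairpin into a short duplex of a 5p and a 3p strand. One strand, the guide, is usually kept by an Argonaute protein and pairs with target mRNAs mainly through its seed, bases 2 to 8, while the other strand is mostly degraded. Teleost fish often hold several genes of a miRNA family, and letters such as a and b mark closely related mature sequences. In mammals miR-22-3p is the guide strand, and it is known to repress ESR1, the estrogen receptor alpha. Estrogen is made by the granulosa cells of the growing follicle.

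The sequences are shown because they say which of the 3 members could share target sites and which could share reads. They are the mature sequences of the deposited lists, written as DNA from 5′ to 3′, with the seed in capitals. The carp-named ccr-mir-22a-p5 is not a member, as it has no dre- prefix, and is shown because it is the closest listed sequence to dre-miR-22a-5p.
dre-miR-22a-3p: aAGCTGCCagctgaagaactgt
dre-miR-22b-3p: aAGCTGCCagttgaagagctgt
dre-miR-22a-5p: aGTTCTTCactggcaagcttta
ccr-mir-22a-p5: aGTTCTTCtctggcaaacttta
All 4 were 22 nt long. The 2 3p sequences shared the seed AGCTGCC, which no other of the 289 miRNAs had, and they were identical at 20 of 22 positions. Counted from the 5′ end of dre-miR-22a-3p, dre-miR-22b-3p differed by C11T and A18G, both outside the seed. The 5p member had another seed, GTTCTTC, which it shared with ccr-mir-22a-p5 alone, and ccr-mir-22a-p5 differed from it by A9T and G17A. No other listed miRNA came within 2 mismatches of a member.

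The hairpin that the study lists for ccr-mir-22a-p5 in the zebrafish genome contained the whole sequence of dre-miR-22a-3p and that of neither other member. The 3p sequence named 22a is thus found in a hairpin that lacks the sequence of miR-22a-5p, and its reads could come from more than 1 hairpin. In a duplex computed with ViennaRNA, dre-miR-22a-5p and dre-miR-22a-3p formed 19 base pairs with an energy of -26.9 kcal/mol, and the same held for dre-miR-22a-5p with dre-miR-22b-3p, so the duplex does not tell a from b. ccr-mir-22a-p5 and dre-miR-22a-3p formed 14 base pairs with -21.1 kcal/mol. In the RefSeq gene order of the GRCz12tu assembly, the hairpin gene dre-mir-22a lay within the spans of the long non-coding RNAs LOC141377843 and LOC137487751, between the protein-coding genes aipl1 and abhd15a. The hairpin gene mir22b lay within the span of the protein-coding gene si:dkey-98f17.5, between vsig10 and aifm3. The table gives no strand, exon or UTR, so the part of these genes that holds each hairpin was not examined. GRCz12tu is not the GRCz11 build of the submitters' processing notes, so no positions are given.

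The deposited values are normalized counts, reads per miRNA that the authors divided by a library size parameter. Their total per library lay between 1779302 and 3166619. Between 82.8% and 85.9% of a library's values under 400 normalized counts were whole multiples of 1 step, at a tolerance of 0.01 steps, and the step was read as the value of 1 read. On that scale the listed miRNAs held between 1129114 reads, in stage IIIa replicate 1, and 9045233 reads, in stage IIIb replicate 3. The gonad miRNAs miR-202-5p and miR-202-3p together took between 16.0% and 23.4% of a library. Of the other cell type lists, the 6 red blood cell miRNAs took between 1.08% and 1.47% of a stage IIIa library and between 0.0904% and 0.283% of a stage IIIb library. All 6 were above 0 in every library and all 6 were lower in stage IIIb, with limma adjusted p-values under 0.05. The 5 white blood cell miRNAs took between 0.368% and 0.555% of a stage IIIa library and between 0.221% and 0.326% of a stage IIIb library, and none was called. The endothelial, stromal, skeletal muscle, epithelial and early embryo lists overlapped between the stages. The liver miRNA dre-miR-122, at most 0.0293% of a library, was listed at 0 in 1 stage IIIa library.

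Nearly the whole family was 1 strand of 1 letter. The normalized counts of miR-22a-3p were 63539, 116201 and 91747 for stage IIIa (replicates 1, 2 and 3, the order kept throughout) and 176927, 273005 and 315083 for stage IIIb. It was the highest member in every library, and its lowest stage IIIb value lay above its highest stage IIIa value. It made up between 97.8% and 98.9% of the counts of the family. For miR-22b-3p, the copy with the same seed, the stage IIIa libraries had 1168, 1728 and 1737 normalized counts and the stage IIIb libraries 1379, 2214 and 2809. It was the second member in every library, and its stages overlapped, with the lowest stage IIIb value below 2 stage IIIa values. miR-22a-5p, by its name the opposite strand of miR-22a-3p, was at 163.9, 438 and 305 normalized counts for stage IIIa, and at 662, 956 and 871 for stage IIIb. It was the lowest member in every library, and its stages did not overlap. In such bulk samples, fewer cells that make a miRNA and less of it per cell cannot be told apart.

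**Figure D1:**
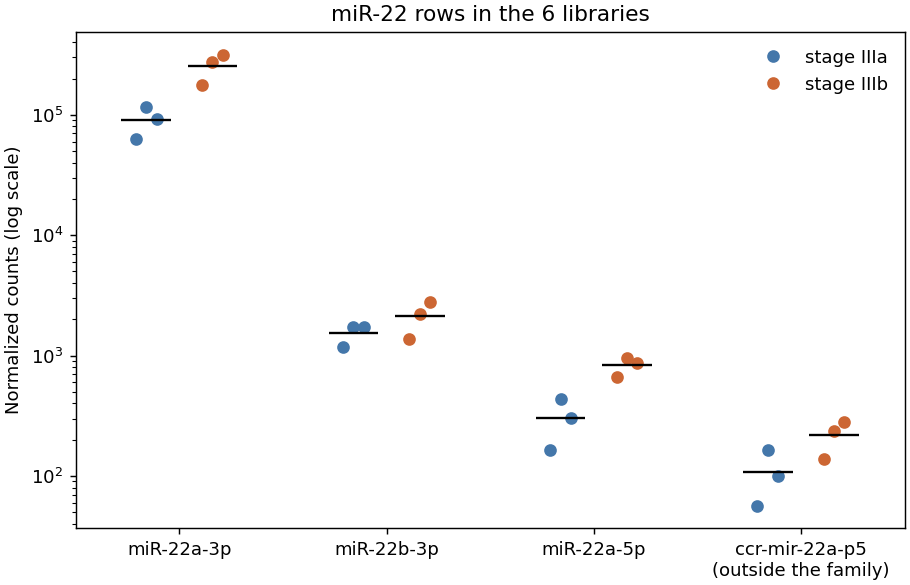
Normalized counts (log axis) of the 3 miR-22 members and of the carp-named ccr-mir-22a-p5 in each library, with 1 point per library and a bar at the mean of the 3 libraries of a stage. miR-22a-3p lies between 63539 and 315083, far above the other sequences, and the stages of miR-22b-3p overlap.

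In rank among the 289 miRNAs, miR-22a-3p was 8, 4 and 6 in the stage IIIa libraries and 3 in each stage IIIb library. Its mean share in stage IIIa, 4.44% ± 0.859 (SD, n = 3), lay between those of dre-miR-26a-5p above it and dre-miR-30d below it, and its values overlapped with those of both. In stage IIIb the next above was dre-miR-143, at 14.4% ± 3.34 (SD, n = 3), and the next below dre-miR-26a-5p, at 6.66% ± 0.197 (SD, n = 3), and its values overlapped with neither. miR-22b-3p ranked between 70 and 94 and miR-22a-5p between 98 and 153. Their values overlapped with those of the miRNAs next to them in both stages. The neighbours of miR-22b-3p were dre-miR-15c and dre-miR-23a-3p in stage IIIa and dre-miR-20a-5p and dre-miR-19a-3p in stage IIIb. Those of miR-22a-5p were dre-miR-30c-3p and dre-miR-24 in stage IIIa and PC-5p-768_6590 and dre-miR-199-5p in stage IIIb. Counts of different sequences also depend on how well each is captured in a small RNA library, which was not tested.

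The 3p arm of miR-22a outnumbered the 5p arm in every library. The ratio of miR-22a-3p to miR-22a-5p was 388, 266 and 301 for stage IIIa, and 267, 286 and 362 for stage IIIb. Both stages spanned much the same range. The mean log2 ratio was 8.27 ± 0.23 (SD, n = 6 libraries), and it is given with no test because the level of miR-22a-3p chose the family. The order of the other members did not enter the choice. miR-22b-3p was above miR-22a-5p in 6 of 6 libraries, by 1.88 ± 0.70 on the log2 scale (SD, n = 6). In an exact two-sided sign-flip permutation test this gave p = 0.03125, the smallest that 6 libraries allow. The test addresses the order of the 2 counts only. It cannot tell unequal levels from unequal capture of the sequences. Nor does it account for reads that miR-22b-3p may share with miR-22a-3p. The ratio of miR-22b-3p to miR-22a-5p was 7.13, 3.95 and 5.69 for stage IIIa and 2.08, 2.32 and 3.22 for stage IIIb, so the stages did not overlap. The mean log2 ratio was 2.44 ± 0.43 for stage IIIa and 1.32 ± 0.33 for stage IIIb (SD, n = 3 each). The SD over 6 libraries thus includes a stage difference of -1.12. Adding ccr-mir-22a-p5 to the 5p arm brought the arm ratio to between 193 and 288, with a mean log2 ratio of 7.88.

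For 32 zebrafish miRNA names, both arms were listed under names ending in -3p and -5p and were above 0 in all 6 libraries. Arms were paired by name and not by hairpin. Names such as dre-miR-92a-2-5p and dre-miR-26a-2-3p were listed apart, so a pair such as miR-92a or miR-26a can join arms of different hairpins. The 3p arm was the higher in 15 of the 32. By the ratio of the 3p to the 5p arm, miR-22a was the third of the 32, with a geometric mean of 308. The highest was miR-92a, at 1708, followed by miR-25, at 547, and the next below miR-22a was miR-27b, at 103. The lowest was miR-26a, in which the 5p arm was the higher, at 0.00105. The median absolute log2 ratio of the 32 was 4.06, below the 8.27 of miR-22a. A further 12 pairs, added after the values were seen, have an opposite arm that the study listed under a p3 or p5 name. Among all 44 pairs, the 3p arm was the higher in 19, and miR-22a was again the third by the ratio. The level of miR-22a-3p, which chose the family, is the upper part of this ratio. A high place was therefore favored by the choice and is given as a description only.

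The arm ratio of miR-22a moved little between the stages, with a mean log2 ratio of 8.29 ± 0.28 before and 8.24 ± 0.23 after the gain of competence (SD, n = 3 each), a difference of -0.05. In 7 of the 32 pairs (21.9%) the ratios of the stages did not overlap, and miR-22a was not one of them. By the size of the stage difference it was number 28 of the 32, whose median was 0.40, and number 40 of the 44 pairs. The strand with few reads limits the precision of this ratio. miR-22a-5p rested on 104 reads in stage IIIa replicate 1 and on between 568 and 2488 in the other libraries. The highest ratio, 388, was that of the library with 104. The next, 362, was that of stage IIIb replicate 3, the library with 2488.

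The balance of the paralogs a and b was another in each stage. The ratio of miR-22a-3p to miR-22b-3p was 54.4, 67.3 and 52.8 for stage IIIa, and 128, 123 and 112 for stage IIIb. Every stage IIIb ratio was above every stage IIIa ratio. The stage IIIa libraries had a mean log2 ratio of 5.85 ± 0.19 and the stage IIIb libraries one of 6.92 ± 0.10 (SD, n = 3 each). The difference, 1.07, exceeds the SD of either stage. No test is given for it, because the behaviour of miR-22a-3p between the stages was known when the family was chosen. A ratio within a library does not depend on how the library was scaled.

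Among the 22 letter pairs of zebrafish miRNAs in which a and b of the same arm were above 0 in every library, miR-22 had the most unequal levels, with a geometric mean ratio of 83.7. The next was miR-29, with miR-29a at 45.6 times miR-29b, and the lowest was miR-15, with miR-15a-5p at 0.0502 of miR-15b-5p. In 6 of the 22 pairs (27.3%) the ratios of the stages did not overlap, miR-22 among them. By the size of the stage difference, miR-22 was the third of the 22, behind miR-203 and miR-10, whose stages overlapped. The median size of that difference over the 22 pairs was 0.34. The level and the stage difference of miR-22a-3p chose the family and enter this ratio. High places among the 22 were therefore favored by the choice and are a description only.

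**Figure D2:**
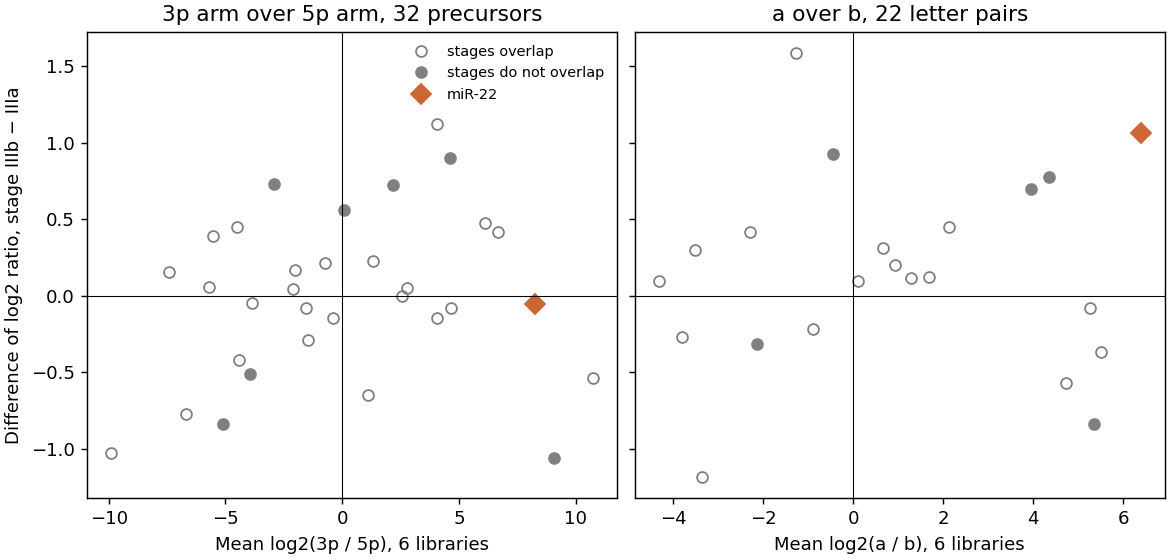
Mean log2 ratio over the 6 libraries (horizontal axis) and difference of the log2 ratio between stage IIIb and stage IIIa (vertical axis), for 32 pairs of arms matched by name on the left and for 22 pairs of paralogs a and b on the right. Filled points are pairs whose stages do not overlap, and the diamond is miR-22, at -0.05 for the arms and 1.07 for the paralogs.

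The 2 names with the AGCTGCC seed also shared a pattern in their read numbers. As reads, miR-22a-3p and miR-22b-3p ended in 0.5 in the same 3 libraries, stage IIIa replicate 3 and stage IIIb replicates 1 and 3, and both were whole in the other 3. In stage IIIb replicate 3 they held 900013.5 and 8022.5 reads, and in stage IIIa replicate 1 they held 40321 and 741. miR-22a-5p and ccr-mir-22a-p5 were whole in all 6 libraries. Of the 289 miRNAs, 177 were whole in every library, and 4 had this same pattern, the other two being dre-miR-132-3p and PC-5p-14585_395. A value of 0.5 is what a read counted under 2 names and divided equally would leave. The number of such reads cannot be read from the values, and their part in the level of miR-22b-3p was not tested.

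Because the family was chosen on this contrast, the differences between the stages are given as a description. As a share of the library, miR-22a-3p was 2.24 times and miR-22a-5p 2.27 times as high in stage IIIb as in stage IIIa, and miR-22b-3p was 1.08 times as high. The share of miR-22a-5p was 0.0147% ± 0.00536 before and 0.0332% ± 0.00495 after the gain of competence, and that of miR-22b-3p was 0.0763% ± 0.00967 before and 0.0824% ± 0.00645 after (SD, n = 3 each). The difference for miR-22b-3p was smaller than the SD of stage IIIa. The shares of 2 of the 3 members, the 22a strands, did not overlap between the stages and were higher in stage IIIb. Of all miRNAs, 29.1% did not overlap, 10.7% being higher in stage IIIb. As shares, the 2 strands of 22a thus stood at like multiples while the b copy stayed near its level. As ratios of mean normalized counts, the multiples were 2.82 for miR-22a-3p, 2.74 for miR-22a-5p and 1.38 for miR-22b-3p. The seed AGCTGCC was supplied by miR-22a-3p to between 98.1% and 99.2% of its counts.

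**Figure D3:**
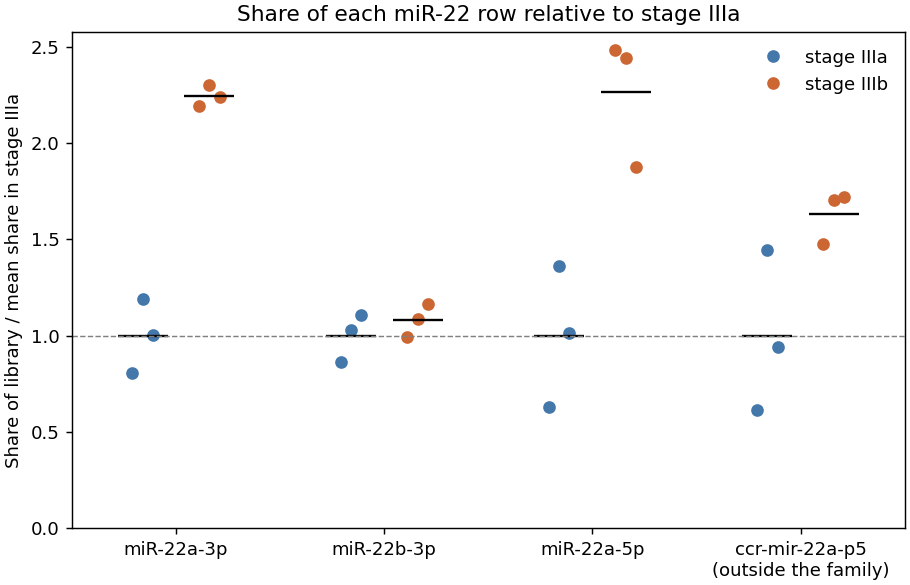
Share of each library taken by the 3 members and by ccr-mir-22a-p5, divided by the mean share of the same sequence in stage IIIa, with 1 point per library and a bar at the mean of each stage. The stage IIIb libraries lie between 2.19 and 2.30 for miR-22a-3p, between 1.88 and 2.48 for miR-22a-5p and between 0.994 and 1.16 for miR-22b-3p.

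The increase of miR-22a-3p was also large beside the difference in mean totals. The mean total was 2010356 normalized counts for stage IIIa and 2553153 for stage IIIb. The totals overlapped, with 1819026 in stage IIIb replicate 1 below 2196896 and 2054871 in stage IIIa replicates 2 and 3. All totals are sums of values already divided by the authors' library size parameter, so their difference depends on that scaling. It is absent with libraries rescaled to equal totals. In the deposited scaling, the increase of miR-22a-3p equalled 30.3% of the difference in mean totals. That difference is net of the miRNAs that were lower in stage IIIb, so such percentages do not add up to a whole. The percentage was 57.0% without stage IIIb replicate 3, 22.4% without stage IIIb replicate 1 and between 27.9% and 35.3% without any one other library. With all libraries, the increase of miR-22a-3p, 164509 normalized counts, was the largest of the 289 miRNAs, ahead of miR-202-5p with 136511. Its level and stage difference chose the family and enter this increase, so a high place was favored by the choice. In normalized counts the order turned without stage IIIb replicate 1, with 203548 for miR-22a-3p and 226157 for miR-202-5p. The mean share of miR-22a-3p was 4.44% in stage IIIa and 9.96% in stage IIIb, and that of miR-202-5p 17.1% and 18.7%. As shares, though not as normalized counts (176927, 273005 and 315083), the libraries of stage IIIb were also close to each other in miR-22a-3p. Their shares were 9.73%, 10.2% and 9.95%, a coefficient of variation of 2.43%, which was the second lowest of the 190 miRNAs with a mean of at least 100 normalized counts, whose median was 18.3%. In stage IIIa the shares were 3.57%, 5.29% and 4.46%, a coefficient of variation of 19.3%, near the median of 22.1%. Libraries of stage IIIa with more miR-22a-3p also had more miR-22a-5p, whose shares were 0.00921%, 0.0199% and 0.0149% in the same order of replicates. The shares of miR-22b-3p, 0.0656%, 0.0786% and 0.0845%, were in another order. Among the stage IIIb libraries the order of miR-22a-5p was not that of miR-22a-3p, as the library lowest in miR-22a-3p was the highest in miR-22a-5p, with shares of 0.0364%, 0.0358% and 0.0275%.

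In the fit over all 289 miRNAs (limma on log2(normalized count + 1)), the log2 difference between stage IIIb and stage IIIa was 1.50 (SE 0.34) for miR-22a-3p, 1.55 (SE 0.41) for miR-22a-5p and 0.43 (SE 0.37) for miR-22b-3p. The median of the 289 was 0.15, and it moved to -0.16 with libraries rescaled to equal totals. Relative to that median the members stood at 1.34, 1.40 and 0.28. At an adjusted p under 0.05, 1 of the 3 members was called higher, miR-22a-3p, where 2.42% of all miRNAs were called higher, 2.08% lower and 4.5% in either direction. The call held without stage IIIb replicate 1 and was lost without any one of the other libraries. The normalized counts of 2 of the 3 members, the 22a strands, did not overlap between the stages and were higher in stage IIIb, as for 11.8% of all miRNAs, while 19.7% did not overlap in either direction. Since the same contrast led to the family, nothing is read from these counts. The red blood cell miRNAs, whose shares are given above, moved between the same libraries in the other direction, and their part in these values was not tested. With their counts left out of the total, the mean share of the family was 4.59% for stage IIIa and 10.1% for stage IIIb, against 4.53% and 10.1% with them. The red blood cell miRNAs took at most 1.47% of a library, so leaving them out could move the share only slightly, whatever their part.

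**Figure D4:**
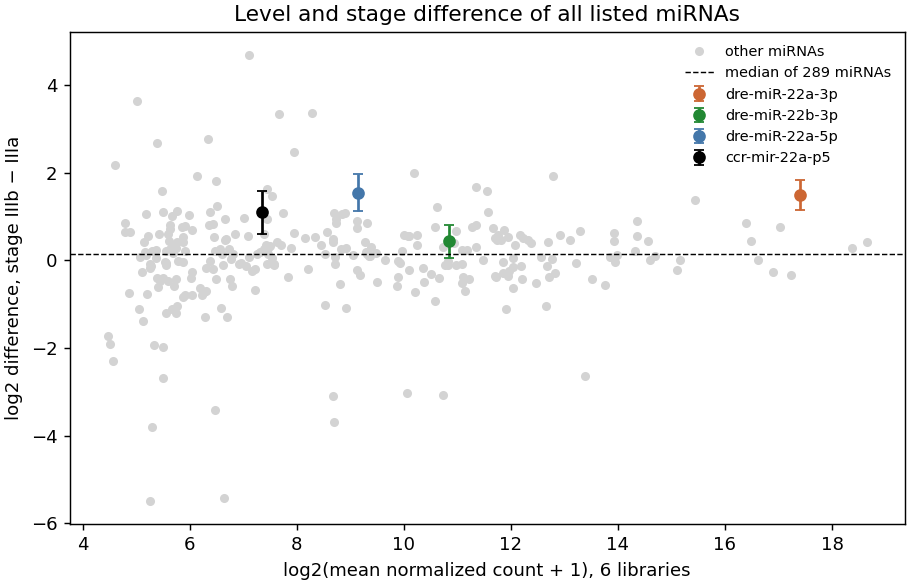
Level (horizontal axis, log2 of the mean normalized count + 1 over 6 libraries) and log2 difference between stage IIIb and stage IIIa (vertical axis) of all 289 miRNAs, with the members and ccr-mir-22a-p5 in color and bars of 1 SE. The dashed line is the median of all miRNAs, 0.15, and miR-22a-3p and miR-22a-5p stand at 1.50 and 1.55.

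The carp-named ccr-mir-22a-p5, the strand opposite to the same 3p sequence in its hairpin, was low. The stage IIIa libraries had 56.7, 164.5 and 99.98 normalized counts and the stage IIIb libraries 139, 236 and 282, so that the stages overlapped. As shares they did not, narrowly, with at most 0.00749% of a stage IIIa library and at least 0.00765% of a stage IIIb library. Its log2 difference was 1.09 (SE 0.49), between those of the 22a strands and of miR-22b-3p. miR-22a-5p was 2.89, 2.66 and 3.05 times as high as ccr-mir-22a-p5 for stage IIIa, and 4.76, 4.06 and 3.09 times for stage IIIb. miR-22a-5p was thus the higher of these 5p sequences in every library, and how much of miR-22a-3p came from the hairpin of each was not tested.

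The miRNAs with the profile most like miR-22a-3p over the 6 libraries were found from log2 shares centred on each miRNA's own mean, by the root mean square difference from miR-22a-3p among the other 186 with a mean of at least 100 normalized counts and no 0. The nearest was dre-miR-29a, at 0.19, which represses collagens and other matrix genes in mammals. It has the mature sequence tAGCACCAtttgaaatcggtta, with the seed in capitals, and so no seed in common with the family. miR-22a-5p followed at 0.21, dre-miR-27a-3p at 0.24, ccr-mir-22a-p5 at 0.28 and dre-miR-27b-3p at 0.30, against a median of 0.77 for all. From the side of miR-22a-5p, the nearest were miR-22a-3p at 0.21, ccr-mir-22a-p5 at 0.29 and dre-miR-27b-3p at 0.32. miR-22b-3p stood elsewhere. From the side of miR-22b-3p, the nearest were ssa-let-7h-3p, dre-miR-130a and ocu-let-7f-2-3p, all at 0.10 or 0.11. There miR-22a-3p was number 133, at 0.55, against a median of 0.41. These distances describe 6 libraries in 2 groups and say nothing of shared control.

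A list of 3 other miRNAs that are known in mammals to repress ESR1 was set beside the family. Whether further listed miRNAs repress it was not examined. Of these 3, none was called higher or lower, and their log2 differences ran from -0.71, for dre-miR-18a, to 0.04, for dre-miR-221-3p, with a median of -0.56. Letter copies outside the list, dre-miR-18c and dre-miR-222b, stood at 0.61 and 0.14. The range and the median thus depend on which copies were listed. For comparison, 7 of the 289 were called higher and 6 lower, with a median of 0.15. The 6 called lower were the 6 red blood cell miRNAs. With equal totals the split was 5 higher and 8 lower, and without stage IIIa replicate 2 or without stage IIIb replicate 3 it was 1 higher and 6 lower. With only miRNAs of a mean of at least 100 normalized counts it was 10 higher and 5 lower. ESR1 itself was not measured.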

How the data were processed

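The authors trimmed and filtered the reads with ACGT101-miR and removed other RNA families and repeats. They mapped unique sequences of 18 to 26 nt by BLAST to zebrafish miRBase hairpins with 1 mismatch allowed, then to hairpins of other species and to the genome, for which the submitters' processing notes name GRCz11. They divided the counts by a library size parameter and deposited these normalized counts, a signal that is not raw counts, for 289 miRNAs in each of 6 libraries. The study describes a minimum of 100 counts in all libraries of at least one stage. The files do not hold to it throughout, as 3 miRNAs (PC-3p-29434_200, PC-3p-5463_997 and PC-5p-15041_384) were listed at 0 in at least 1 library of each stage. Rows at 0 are not the only departures in normalized counts. For example, dre-miR-24b-5p lay between 9.46 and 70.4 in every library.

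From these values, shares, ratios and ranks were computed with Python 3.11.15. Stage differences were fitted on log2(normalized count + 1) by limma 3.58.1 (R 4.3.3), with a mean-variance trend, no filter, all 6 libraries, and Benjamini-Hochberg adjustment over 289 miRNAs. The study names a t-test on normalized counts, which was run as an alternative with the same adjustment. The limma procedure was tested on simulated data in which all miRNAs had the same SD. That simulation therefore did not check the fit under unequal SDs or a mean-variance trend. The ratio of miR-22b-3p to miR-22a-5p was tested with an exact sign-flip permutation test over 64 assignments. The same test of the ratios with miR-22a-3p is not given, as its level chose the family. Duplexes used ViennaRNA 2.7.2. Libraries of one stage differed by far more than sampling noise and were kept apart. p-values measure the spread between these pools only. The named miRNAs are the members, sequences with a member's seed or at most 2 mismatches, neighbours in rank, the nearest profiles (5 for miR-22a-3p, 3 for each other member), extreme pairs and called list members. miR-202-5p, miR-203, miR-10, miR-132-3p, PC-5p-14585_395, dre-miR-18c, dre-miR-222b and dre-miR-24b-5p were named after their values were seen. The family, the lists and the rules were chosen with earlier results of these data known. The alternatives were other pseudocounts, scalings, filters, fits, totals and left-out libraries. A further list of miRNAs fixed for this work is not reported here.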

Additional observations from a re-analysis of the deposited data

How the results depend on the processing

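The log2 stage differences of the 3 members kept their direction and moved by less than the SD between libraries in all 17 alternatives. With each library left out in turn they ran from 1.26 to 1.74 for miR-22a-3p, from 1.16 to 1.87 for miR-22a-5p and from 0.20 to 0.72 for miR-22b-3p, and under the other alternatives from 1.18 to 1.50, 1.24 to 1.55 and 0.12 to 0.47. The number of members called, 1, became 2 with only miRNAs of a mean of at least 100 normalized counts and with robust empirical Bayes. The added member was miR-22a-5p. The number of all miRNAs called rose as well, from 13 of 289 in the main fit. It was 15 of 190 under that filter and 15 of 289 with robust empirical Bayes. The number of members called became 0 without the trend, where 10 of 289 miRNAs were called. It was also 0 with Student's t-test on untransformed values after Benjamini-Hochberg adjustment. The study names no such adjustment for its t-test and counts dre-miR-22a-3p among the miRNAs that differed between the stages. It also reports a similar trend by qPCR in new samples. The number of members called ran from 0 to 1 with a library left out, being 1 only without stage IIIb replicate 1. The number of all miRNAs called, 13, ran from 7 to 12 with a library left out, and was 7 without stage IIIa replicate 2 or stage IIIb replicate 3. It was 0 with Student's t-test, where 32 had an unadjusted p under 0.05. The split of higher and lower calls, 7 and 6, became 5 and 8 with equal totals, 6 and 9 with the median of ratios and 6 and 8 with the upper quartile. In the other direction, it became 10 and 5 with a mean of at least 100 normalized counts, 9 and 6 with robust empirical Bayes and 8 and 6 with pseudocount 10. It was 1 and 6 without stage IIIa replicate 2 or without stage IIIb replicate 3, and 2 and 8 without stage IIIa replicate 1. The cause was not tested. Without miR-202-5p and miR-143 in the total, the family share became 6.77% in stage IIIa and 15.1% in stage IIIb, as a smaller total makes it. With a library left out it ran from 4.11% to 4.98% and from 9.95% to 10.2%. The log2 ratios ran from 8.20 to 8.31 for the arms, from 6.26 to 6.52 for the paralogs and from 1.69 to 2.04 for miR-22b-3p over miR-22a-5p. The last then had an exact permutation p of 0.0625, the smallest that 5 libraries allow. The stage difference of the paralog ratio then lay between 1.001 and 1.18, and that of the arm ratio between -0.18 and 0.10. In the replicate block fit, with the number as a term, 1 member and 9 of all miRNAs were called. An unadjusted p under 0.05 was reached by 59 miRNAs, against 43 in the main fit. The SE was 0.20 for miR-22a-3p, 0.27 for miR-22a-5p and 0.22 for miR-22b-3p, against 0.34, 0.41 and 0.37 in the main fit. Deviations of libraries with the same number correlated at 0.10, 0.28 and -0.03, and 3 of 6 libraries correlated best with their own number. With so few libraries, these values cannot decide whether libraries with the same number form pairs. Low counts limit miR-22a-5p and ccr-mir-22a-p5 in stage IIIa replicate 1, with 104 and 36 reads.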
